A study of Mus musculus with 16 samples.

Results

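The sub-polysomal RNA of antigen-stimulated OT-1 T cells was compared between Lck-/- and WT cells. This pool was read from the Cy3 channel of the 8 standard arrays and from the Cy5 channel of the 8 dye-swap arrays, which are 16 of the 32 array channels of the series. The other 16 channels held the polysomal RNA of the same extracts. Averaging the 2 arrays of each extract left 4 WT and 4 Lck-/- extracts. Both groups were T cells from lymph nodes of mice with the OT-1 receptor (given as OT-1het) and without Rag (Rag-/-), so that the controls also lacked Rag. The OT-1 receptor is a transgenic T cell receptor of CD8 T cells that recognises the ovalbumin peptide SIINFEKL. Both genotypes were stimulated for 24 h with the peptide at 100 nM and then held for 10 min in cycloheximide at 100 µg/ml. The age of the mice, the number of animals behind an extract and the allele of Lck are not given in the labels, and the series title adds OFF to the knockout without saying what it stands for. No label ties the extracts to separate animals or cultures; the spread behind each p-value is that between these extracts and may be technical.

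On a sucrose gradient, mRNAs that carry several ribosomes sink into the polysomal fractions. Fractions 1 to 5 of 10, pooled here as sub-polysomal, hold mRNAs with few or no ribosomes, free ribosomal subunits, non-coding RNAs of the cytoplasm and RNAs that cytosolic ribosomes do not translate, such as the mRNAs made inside mitochondria. Lck is the Src-family kinase that phosphorylates the T cell receptor complex and Zap70 at the start of signalling. In a CD8 T cell, antigen normally drives growth, ribosome production, cell division and the making of effector molecules.

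All levels below are log2 array intensities of the sub-polysomal channel, scaled between arrays, and a difference is always Lck-/- minus WT on that scale. They describe the share of a transcript in the scaled pool, and fewer cells of a type cannot be told apart from less RNA per cell. Per array, 12531 to 30976 sub-polysomal signals (median 22889) cleared the scanner's background test, and no spot was saturated. The arrays labelled as WT replicates 1 and 2 deviated against their own dye swaps (r = -0.28 and -0.48 over the genes tested) and with each other's (0.53 and 0.61), whereas the other 6 extracts gave 0.33 to 0.69. Results are therefore also given with these 2 dye-swap arrays exchanged, called crossed dye swaps, and without both extracts. Crossing leaves the difference as it is and changes its error. It also joins arrays of the same slide, slide 1 for one of these WT extracts and slide 2 for the other. Each labelled extract has 1 array on each slide. The part of the slide in these correlations and in the crossed errors was not tested. The standard array of Lck-/- replicate 1 stood apart in depth, with 27594 sub-polysomal probes above background against 12531 to 15941 on the other standard arrays. Its dye-swap array did not, with 24403 where the dye-swap arrays ranged from 21855 to 30976.

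Lck itself was lower in the Lck-/- pool but well detected. Its probe lies on chromosome 4 (chr4:129225614-129225673 of mm9, minus strand). The 4 WT extracts lay at 14.89, 14.91, 14.67 and 14.94, and the 4 Lck-/- extracts at 14.08, 14.08, 13.96 and 14.11. The groups did not overlap, and the difference was -0.79 (SE 0.12, limma adjusted p = 0.00284, and 0.0120 with crossed dye swaps). Median centring within arrays, which lifts the median of all genes, left a difference of -0.28 with adjusted p = 0.234. On slide 2 alone it was -0.88 with adjusted p = 0.0514. The probe was well above background on 8 of 8 arrays of each genotype, and the labels do not say which part of the gene is changed, so the probe may lie outside it.

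Of 9664 genes tested, 817 rose in Lck-/- (8.45%) and 1000 fell (10.3%), together 18.8%, at a limma adjusted p below 0.05. With crossed dye swaps 398 rose (4.12%) and 616 fell (6.37%), and 379 (3.92%) rose and 640 (6.62%) fell once WT replicates 1 and 2 were left out. For 25.7% of genes the 4 and 4 extracts did not overlap. The median difference of all genes was 0.05. The balance of rises and falls depended on the scaling. It was 1041 to 827 when the sub-polysomal channel was scaled alone, 1016 to 822 with the scanner's processed signals, 531 to 1955 with scaling to the 75th percentile (median of all genes -0.13) and 3548 to 323 with median centring (median of all genes 0.37). Within slides the counts were 1148 and 1223 on slide 1 and 34 and 111 on slide 2. Leaving out an extract moved the total of 1817 to between 946 and 1915 calls, and by over 1.5 times for WT replicate 2 (1173), WT replicate 3 (1144), Lck-/- replicate 3 (946) and Lck-/- replicate 4 (1008). For that reason lists are read against the median of all genes as well as against 0, and the direction of each list was checked under all 5 scalings.

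**Figure D1:**
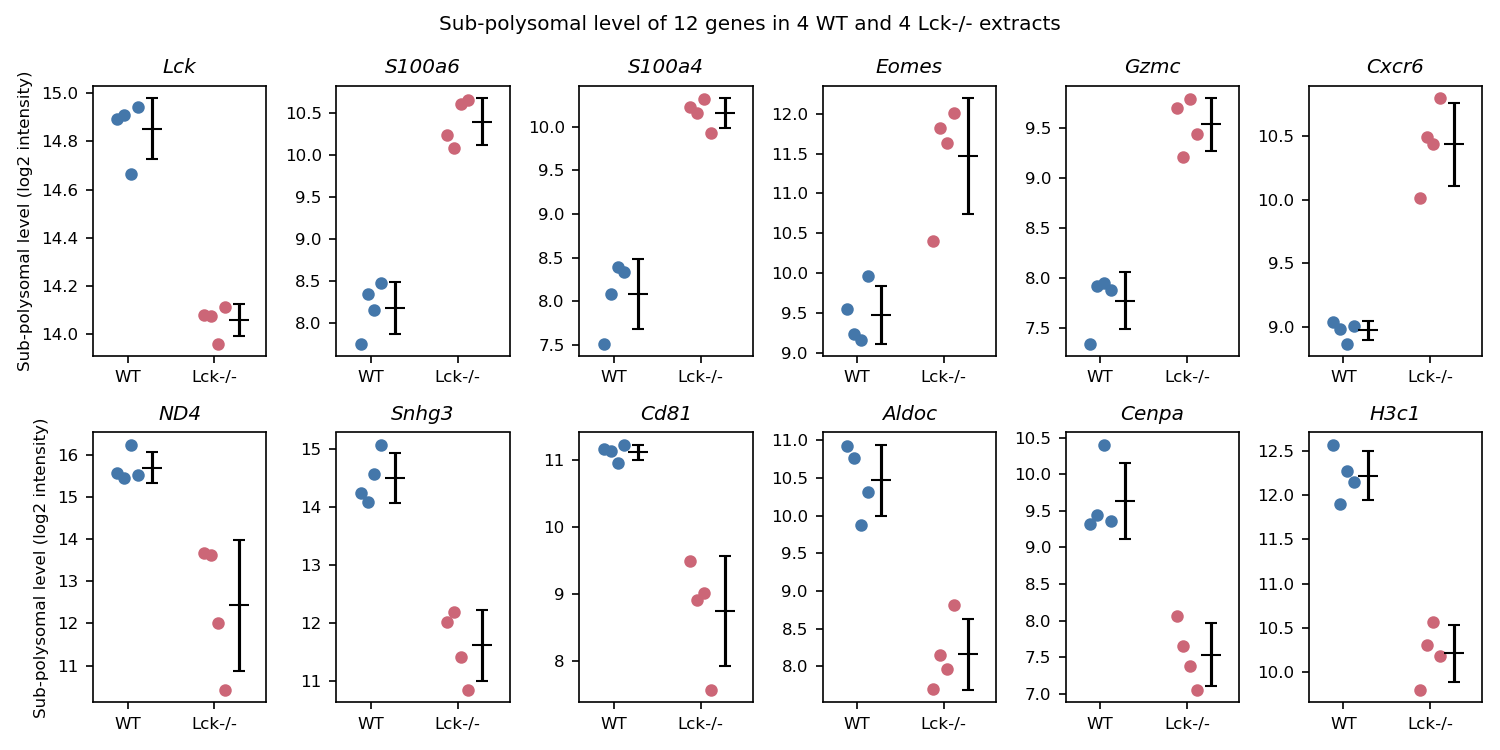
Sub-polysomal level (y axis, log2 intensity) of 12 genes in 4 WT (blue) and 4 Lck-/- (red) extracts, with the mean and SD of each group in black; y axes do not start at 0. Lck, ND4, Snhg3, Cd81, Aldoc, Cenpa and H3c1 are lower and S100a6, S100a4, Eomes, Gzmc and Cxcr6 higher in Lck-/-. In all 12 panels the extracts of the genotypes do not overlap. Except for Lck, the genes were chosen by a rule that required this, and 25.7% of all genes tested did not overlap.

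Mitochondrially encoded mRNAs, which cytosolic ribosomes do not translate, were among the largest falls. Of the 13 mitochondrially encoded mRNAs, which encode subunits of the respiratory chain and ATP synthase and are translated by mitochondrial ribosomes, 12 fell and none rose (10 fell with crossed dye swaps, 7 without WT replicates 1 and 2, and none on slide 2 alone). Their median difference was -1.73, and -1.59 on slide 2 alone. The probes of 3 that fell furthest, and of ND6, which did not, are shown first because they tell which transcripts were read; they are written in lower case, 5′ to 3′, as the files give them, with mm9 positions.
ND4 (chrM:11370-11429, plus strand): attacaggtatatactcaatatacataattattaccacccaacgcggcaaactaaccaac
ND1 (chrM:2898-2957, plus strand): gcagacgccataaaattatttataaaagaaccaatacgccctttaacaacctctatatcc
CYTB (chrM:15099-15158, plus strand): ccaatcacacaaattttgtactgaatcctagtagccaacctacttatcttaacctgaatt
ND6 (chrM:13552-13611, minus strand): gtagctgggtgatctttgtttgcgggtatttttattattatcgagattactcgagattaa
All 4 have 35% G and C. ND6 is the mRNA that lies on the other strand of the mitochondrial genome.

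ND4, a subunit of complex I, lay at 15.58, 15.45, 16.24 and 15.52 in WT and at 13.67, 13.62, 11.998 and 10.42 in Lck-/-. It had the largest fall among all genes tested, -3.27 (SE 0.60, limma adjusted p = 0.00550, and 0.0127 with crossed dye swaps). WT replicate 3 lay above the other WT extracts, and the Lck-/- extracts spread over more than 3 log2 units, with replicates 3 and 4 lowest. ND1, another complex I subunit, lay at 14.82, 14.44, 15.13 and 14.65 in WT and at 12.82, 13.57, 11.12 and 10.29 in Lck-/-, a difference of -2.81 (SE 0.57, adjusted p = 0.00840). CYTB, of complex III, differed by -2.09 (SE 0.37, adjusted p = 0.00510) and ATP6, of ATP synthase, by -2.05 (SE 0.45, adjusted p = 0.0111). In both, the 4 Lck-/- extracts were below all WT extracts, again with replicate 4 lowest. COX2, of complex IV, differed least of the members that fell: 18.41, 18.42, 18.40 and 18.20 in WT against 17.73, 18.03, 17.65 and 17.49 in Lck-/-, a difference of -0.63 (adjusted p = 0.0131) that turned to 0.02 when the channel was scaled alone. ND6 did not pass the test. It lay at 11.97, 11.45, 10.17 and 11.86 in WT and at 11.42, 11.90, 11.92 and 11.85 in Lck-/-, a difference of 0.41 (SE 0.33, adjusted p = 0.395), and the groups overlapped. The list's median stayed below 0 under the 5 scalings, from -1.82 to -1.20.

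Some listed long non-coding RNAs also fell. Many of them are hosts of small nucleolar RNAs (snoRNAs): the snoRNA is cut from an intron and the spliced exons remain as an RNA with little or no coding sequence. Of 21 listed snoRNA hosts and long non-coding RNAs tested, 9 fell and none rose (8 with crossed dye swaps and 9 without WT replicates 1 and 2, but 2 on slide 2 alone and 14 with scaling to the 75th percentile). Their median difference was -0.53, and between -0.71 and -0.17 under the 5 scalings. The probes of the host Gas5 and of Rmrp, the RNA of the RNase MRP complex that processes ribosomal RNA precursors, follow in the same form.
Gas5 (chr1:162968608-162968667, plus strand): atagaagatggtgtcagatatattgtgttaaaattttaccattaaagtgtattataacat
Rmrp (chr4:43505847-43505906, minus strand): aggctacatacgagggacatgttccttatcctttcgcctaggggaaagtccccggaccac
Snhg3 lay at 14.24, 14.09, 14.57 and 15.07 in WT and at 12.02, 12.19, 11.42 and 10.84 in Lck-/-, a difference of -2.88 (limma SE 0.30, adjusted p = 0.000427, and 0.00318 with crossed dye swaps). Gas5 lay at 15.58, 15.51, 15.51 and 15.71 in WT and at 13.44, 14.35, 14.24 and 14.10 in Lck-/-, a difference of -1.55 (SE 0.19, adjusted p = 0.00100). Snhg1 fell by 1.56 (SE 0.22, adjusted p = 0.00203). In these 3 hosts each Lck-/- extract was below each WT extract. Snhg6, Snhg7, Dancr, Zfas1, Snhg5 and the nuclear RNA Malat1 were the other members that fell, by 0.50 to 1.14. Norad and Rnf187 were the members above 0, at 0.22 and 0.29, and neither passed; Rnf187 is listed here although it encodes a protein.

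Rmrp fell from 13.22, 14.40, 14.04 and 14.26 in WT to 13.12, 12.39, 12.80 and 12.34 in Lck-/-, a difference of -1.32 (limma SE 0.26, adjusted p = 0.00748, and 0.00522 with crossed dye swaps). WT replicate 1 lay just above Lck-/- replicate 1, and the other extracts were further apart. It was the 1 of 6 structured small RNAs tested that passed; the other 5 had differences of -0.70 to -0.17. Lockd, a long non-coding RNA transcribed next to the cell cycle inhibitor gene Cdkn1b, lay at 11.25, 11.26, 12.10 and 11.20 in WT and at 9.70, 8.90, 8.98 and 9.31 in Lck-/-, a difference of -2.23 (SE 0.23, adjusted p = 0.000473). Over the gene types of the reference annotation, 31 of 195 long non-coding RNAs fell and 7 rose, with a median of -0.12, and 87 of 209 pseudogenes fell and 4 rose, with a median of -0.41. With crossed dye swaps 43 pseudogenes fell and 2 rose. The pseudogene median was -0.13 with the channel alone and with processed signals, and 0.05 with median centring; that of long non-coding RNAs was also 0.05 with median centring, and -0.41 with scaling to the 75th percentile. Among the other 9227 protein-coding genes 867 fell and 806 rose, with a median of 0.06. Pseudogene probes can share sequence with their parent mRNAs, so their counts are not independent of those genes.

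**Figure D2:**
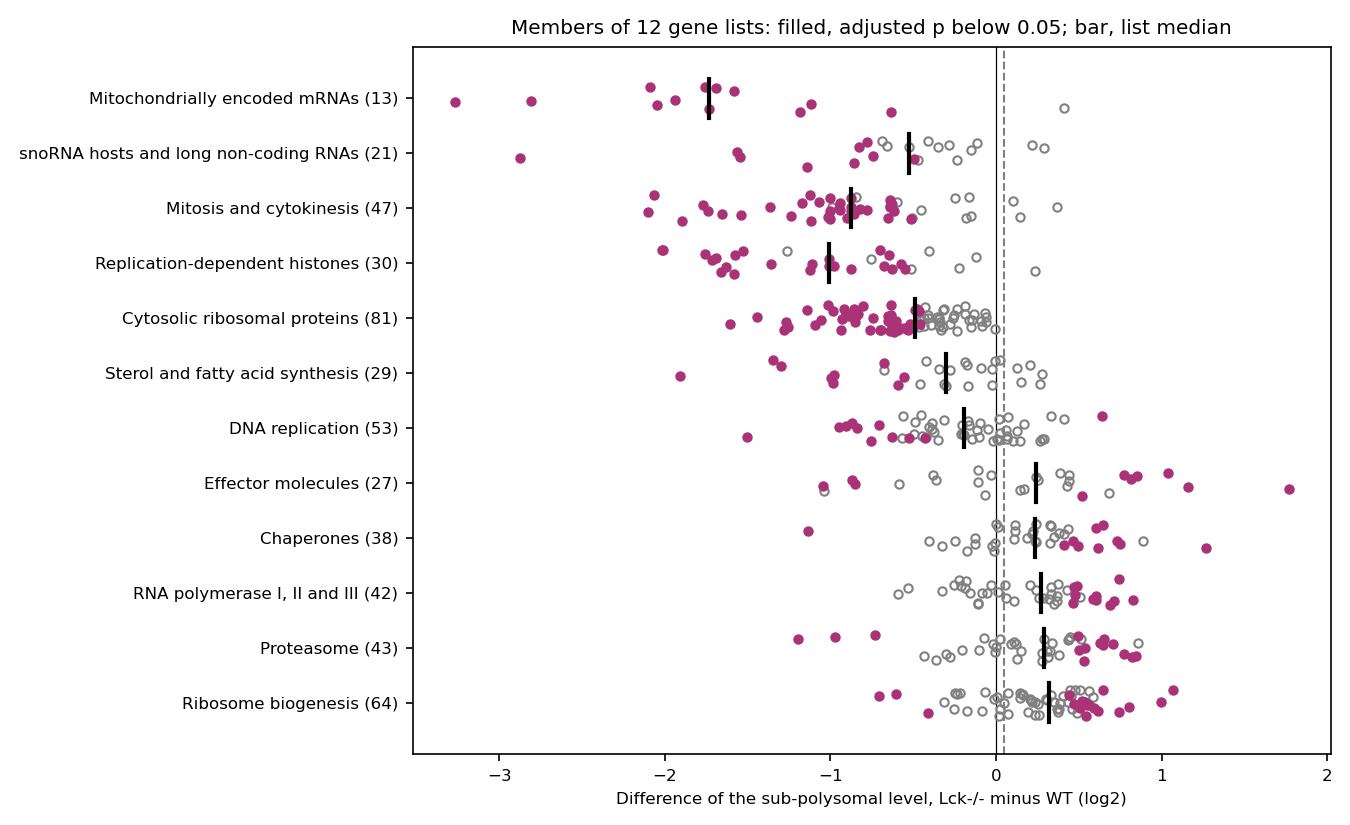
Difference of the sub-polysomal level, Lck-/- minus WT (x axis, log2), for each tested member of 12 gene lists (number tested in brackets); filled points passed the limma test at an adjusted p below 0.05, black bars are list medians, the dashed line is the median of all genes. The filled points of the upper 6 lists lie below 0, and most filled points of the lowest 5 lists lie above it.

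Genes of cell division were lower in the Lck-/- pool. Of 47 mitosis and cytokinesis genes tested, 34 fell and none rose (29 with crossed dye swaps, 27 without WT replicates 1 and 2, 20 with median centring and 15 on slide 2 alone), with a median of -0.88 that lay between -1.07 and -0.52 under the 5 scalings. Cenpa, the histone H3 variant of centromeres, lay at 9.33, 9.45, 10.40 and 9.36 in WT and at 8.06, 7.65, 7.38 and 7.05 in Lck-/-, a difference of -2.10 (limma SE 0.27, adjusted p = 0.00138). Nusap1, which binds spindle microtubules, fell by 2.07 (SE 0.27, adjusted p = 0.00160), and Hmmr by 1.77. The cytokinesis protein Anln fell by 1.37. Bub1, a kinase of the spindle checkpoint, lay at 9.88, 9.77, 9.83 and 9.64 in WT and at 8.90, 8.81, 8.71 and 8.68 in Lck-/-, a difference of -1.01 (SE 0.12, adjusted p = 0.00100). The extracts of each genotype were tight for Bub1 and far apart from the other genotype. Aunip, which binds the mitotic kinase Aurora A, lay at 10.98, 10.90, 11.01 and 11.22 in WT and at 8.79, 8.94, 8.64 and 8.25 in Lck-/-, a difference of -2.37 (SE 0.16, adjusted p = 4.15e-05).

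Histone mRNAs made for S phase fell with them. Of 30 replication-dependent histone genes tested, 23 fell and none rose (17 with crossed dye swaps and 17 without WT replicates 1 and 2, 15 with the channel alone, 14 with processed signals, 13 with median centring and 10 on slide 2 alone), with a median of -1.01. These mRNAs end in a stem-loop in place of a poly(A) tail, and their close copies can share probes. H3c1 lay at 12.57, 11.90, 12.28 and 12.15 in WT and at 9.79, 10.30, 10.56 and 10.18 in Lck-/-, a difference of -2.01 (limma SE 0.19, adjusted p = 0.000334). H4c3 fell by 2.02 (SE 0.23, adjusted p = 0.000571), and H2bc14 by 1.76, and H4c17 fell by 1.69. DNA replication genes moved less: 10 of 53 fell, 1 rose, and the median was -0.20 (6 fell with crossed dye swaps and 6 without WT replicates 1 and 2); with median centring the median was 0.23, still 0.13 below that of all genes. Tk1, the thymidine kinase of S phase, fell by 0.95 (SE 0.15, adjusted p = 0.00300), and Rpa2 was the member that rose, by 0.64 (adjusted p = 0.0151, and 0.0532 with crossed dye swaps). Among G1 cyclins, their kinases and inhibitors 3 of 23 rose and 2 fell, where 8.45% of all genes rose and 10.3% fell. In that list the CDK inhibitor Cdkn2c fell by 0.99 and the phosphatase Cdc25a rose by 0.80.

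**Figure D3:**
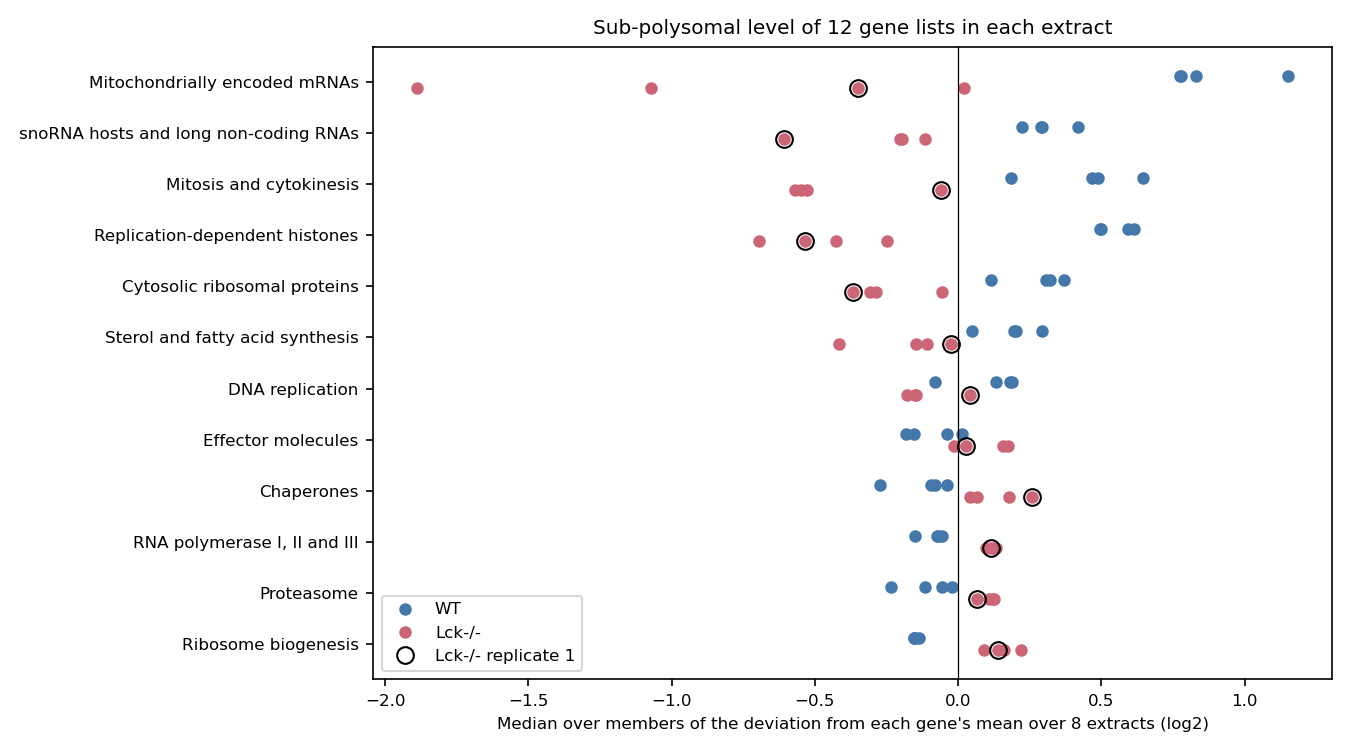
Median over the members of each of 12 lists of the deviation from the gene's mean over 8 extracts (x axis, log2), 1 point per extract, WT in blue and Lck-/- in red, with Lck-/- replicate 1 ringed. For mitosis and cytokinesis the ringed point lies at -0.06 and the other Lck-/- extracts at -0.57 to -0.53; for mitochondrially encoded mRNAs the Lck-/- extracts range from -1.89 to 0.02.

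Lck-/- replicate 1 differed from the other Lck-/- extracts in these lists. Its median deviation over the mitosis genes was -0.06, against -0.57 to -0.53 in the other 3 and 0.18 to 0.64 in WT. For DNA replication it was 0.04, among the WT extracts (-0.08 to 0.19). For snoRNA hosts it was the lowest extract, at -0.61 against -0.20 to -0.12. Without it, 37 mitosis genes and 20 histone genes fell. This is the extract with the deepest standard array, and the part of depth in these values was not tested.

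Among metabolic lists, sterol and fatty acid synthesis had falls and no rises, and the others had both. Over all genes 10.3% fell and 8.45% rose. In nuclear-encoded oxidative phosphorylation 8 of 76 fell and 6 rose, in serine, one-carbon and nucleotide synthesis 3 of 33 fell and 3 rose, and of 13 amino acid transporters 2 fell and 2 rose. In sterol and fatty acid synthesis 9 of 29 fell and none rose (8 with crossed dye swaps and 7 without WT replicates 1 and 2), with a median of -0.30, or 0.06 with median centring, which is 0.31 below the median of all genes there. Fdps, which makes farnesyl diphosphate, lay at 12.40, 12.35, 12.58 and 12.29 in WT and at 11.13, 11.02, 11.04 and 11.05 in Lck-/-, a difference of -1.35 (limma SE 0.12, adjusted p = 0.000263). The values of each genotype lay within 0.3 log2 units. Scd2, a fatty acid desaturase, fell by 1.91 (SE 0.36, adjusted p = 0.00622), Tm7sf2 by 1.30, Fdft1 by 1.00 and Lss by 0.98. In glycolysis 7 of 31 fell and 2 rose, with a median of -0.26 that was 0.03 with processed signals and 0.27 with median centring. Aldoc, an aldolase, lay at 10.92, 10.77, 9.88 and 10.32 in WT and at 7.70, 8.16, 7.97 and 8.81 in Lck-/-, a difference of -2.31 (SE 0.27, adjusted p = 0.000767). Egln3, an oxygen sensor, fell by 1.62, and Bnip3 by 1.76 (SE 0.27, adjusted p = 0.00281). The glucose transporter Slc2a1 fell by 0.87, while Taldo1 rose by 0.68 (adjusted p = 0.00999, and 0.0532 with crossed dye swaps).

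Other large falls were in surface and signalling genes. Cd81, a tetraspanin, lay at 11.16, 11.13, 10.96 and 11.22 in WT and at 9.49, 8.90, 9.02 and 7.56 in Lck-/-, a difference of -2.38 (limma SE 0.33, adjusted p = 0.00200). Gnas, a stimulatory G protein subunit, fell by 2.11 (SE 0.32, adjusted p = 0.00284).

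Effector genes went in both directions in the Lck-/- pool, with 16 of 27 differences above 0 against 5280 of 9664 for all genes. Of 27 effector molecules tested, 7 rose and 3 fell (6 and none with crossed dye swaps, 3 and 1 without WT replicates 1 and 2), with a median of 0.24, or 0.02 with scaling to the 75th percentile, and 2 rose and none fell on slide 2 alone. The number that fell was 1 without any of WT replicates 1, 2 and 3 and Lck-/- replicates 3 and 4, each left out alone. Over all genes 8.45% rose and 10.3% fell, or 4.12% and 6.37% with crossed dye swaps. Among effector genes above background on 8 of 8 arrays of both genotypes, 5 rose and 2 fell. Ifng, the cytokine interferon gamma, lay at 12.51, 12.46, 12.69 and 12.07 in WT and at 13.34, 13.999, 13.50 and 13.05 in Lck-/-, a difference of 1.04 (limma SE 0.21, adjusted p = 0.00755, and 0.0494 with crossed dye swaps, where the groups overlapped). Gzmc, a granzyme of activated killer cells, was above background on 4 of 8 WT arrays and 8 of 8 Lck-/- arrays; it lay at 7.34, 7.91, 7.94 and 7.88 in WT, which is partly background, and at 9.71, 9.22, 9.79 and 9.44 in Lck-/-. Csf2, the growth factor GM-CSF, rose by 1.16, Lta by 0.82 and Ltb by 0.77. Serpinb6b, a protease inhibitor, fell by 0.87 (adjusted p = 0.0120, and 0.0861 with crossed dye swaps).

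Some transcription factors of effector and memory T cells passed the test, in both directions. Eomes lay at 9.56, 9.24, 9.16 and 9.96 in WT and at 10.40, 11.82, 11.64 and 12.02 in Lck-/-, a difference of 1.99 (limma SE 0.32, adjusted p = 0.00333). Lck-/- replicate 1 was the lowest of its group and still above all WT extracts. Tbx21, which encodes T-bet, rose by 0.83 (SE 0.17, adjusted p = 0.00801). Of 32 activation-induced transcription factors tested, 5 rose and 3 fell (4 and 2 with crossed dye swaps), where 8.45% of all genes rose and 10.3% fell. Batf3 fell by 1.00 and Nr4a2 by 0.87. Among genes of quiescence and homing, 6 of 37 rose and 5 fell (5 and 4 with crossed dye swaps). Tcf7, a factor of naive and memory cells, lay at 11.89, 11.66, 11.41 and 11.58 in WT and at 12.57, 12.94, 12.56 and 12.50 in Lck-/-, a difference of 1.01 (SE 0.15, adjusted p = 0.00267). Id3, also known from naive and memory cells, moved the other way, by -1.18 (SE 0.17, adjusted p = 0.00236), with Rgs2 at -1.39 and Rgs10 at -1.24.

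Among the largest rises, S100a6 lay at 7.76, 8.34, 8.15 and 8.47 in WT and at 10.24, 10.09, 10.61 and 10.66 in Lck-/-, a difference of 2.22 (limma SE 0.19, adjusted p = 0.000209). Its neighbour S100a4 rose by 2.08 (SE 0.19, adjusted p = 0.000334), and both encode small calcium-binding proteins. Cxcr6, a chemokine receptor of effector T cells, lay at 9.04, 8.98, 8.87 and 9.01 in WT and at 10.01, 10.49, 10.44 and 10.80 in Lck-/-, a difference of 1.46 (SE 0.16, adjusted p = 0.000571). Ubxn11 rose by 1.83 (SE 0.14, adjusted p = 8.01e-05), with 9.14 to 9.48 in WT and 10.95 to 11.35 in Lck-/-. Mid1, a ubiquitin ligase of microtubules, and St6galnac2, a sialyltransferase, were not well above background on any WT array. They were therefore at least 3.95-fold and at least 3.79-fold higher in Lck-/-, against the lowest signal that counted as above background on each WT array. The gene named Olfr224, annotated as an olfactory receptor, was above background on 8 of 8 Lck-/- arrays (9.47 to 10.40) and on 1 of 8 WT arrays, so its WT level was hardly measured and no size is given for its rise. Further rises were those of Lgmn, a lysosomal protease, by 1.38, Pde2a, a phosphodiesterase, by 1.33 and Pomgnt2 by 1.30. Usp18, a regulator of interferon signalling, passed the test but was above background on 4 of 8 WT arrays.

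In proximal T cell receptor signalling 3 of 27 genes rose and 2 fell, Lck among them, which is near the 8.45% and 10.3% of all genes. The adaptor Lat lay at 11.98, 12.07, 11.90 and 11.94 in WT and at 12.98, 12.66, 12.65 and 12.59 in Lck-/-, a difference of 0.75 (limma SE 0.13, adjusted p = 0.00456). Vav1 rose by 0.71 and Lcp2 by 0.65 (above background on 5 of 8 WT arrays), and the inhibitory receptor Cd5 fell by 0.66. Of 30 cytokine receptor and JAK-STAT genes 6 rose and 3 fell. Jak3, the kinase that serves the common gamma chain, lay at 9.75, 9.71, 9.44 and 9.76 in WT and at 8.26, 8.50, 8.07 and 8.04 in Lck-/-, a difference of -1.45 (SE 0.15, adjusted p = 0.000411). Il21r rose by 0.76 and Il2rb by 0.69. Among inhibitory receptors Ctla4 fell by 1.18 (SE 0.18, adjusted p = 0.00312) and Btla by 0.70 (adjusted p = 0.0408, and 0.0623 with crossed dye swaps), and the other 6 of 8 did not pass. Tnfrsf4, the costimulatory receptor OX40, fell by 1.57 (SE 0.22, adjusted p = 0.00200); in its list of 22 activation markers 3 rose and 3 fell.

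Some genes of the cell's synthesis machinery rose in small steps, where 8.45% of all genes rose, or 4.12% with crossed dye swaps. In the latter setting the counts of the spliceosome (3 of 70) and the proteasome (1 of 43) were near or below that share. In ribosome biogenesis 16 of 64 rose and 3 fell (7 and 1 with crossed dye swaps and also without WT replicates 1 and 2), with a median of 0.32. The count of rises was 7 without Lck-/- replicate 3, 8 without Lck-/- replicate 4 and none on slide 2 alone. On slide 2 the list's median was 0.28. The 4 WT extracts had median deviations of -0.16 to -0.14 over this list and the 4 Lck-/- extracts 0.09 to 0.22. Fbl, the methyltransferase of snoRNA-guided rRNA modification, lay at 12.42, 12.91, 12.28 and 12.99 in WT and at 13.66, 13.79, 13.50 and 13.63 in Lck-/-, a difference of 1.00 (limma SE 0.18, adjusted p = 0.00488). Ebna1bp2, a nucleolar assembly factor, rose by 1.07 (SE 0.23, adjusted p = 0.00945) and Wdr75 by 0.65. For subunits of RNA polymerases 11 of 42 rose and none fell (5 with crossed dye swaps, 4 without WT replicates 1 and 2, 6 without WT replicate 2, 5 without Lck-/- replicate 3 and 7 without Lck-/- replicate 4), with a median of 0.27; Polr3b lay at 9.16, 9.04, 9.06 and 9.14 in WT and at 9.88, 9.74, 9.63 and 9.99 in Lck-/-, a difference of 0.71 (SE 0.13, adjusted p = 0.00488).

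In the proteasome 11 of 43 rose and 3 fell, with a median of 0.29, but with crossed dye swaps 1 rose and 3 fell. On slide 2 alone no proteasome, RNA polymerase, chaperone or spliceosome gene passed in either direction, where 34 of all 9664 genes rose and 111 fell. The list medians there were 0.22, 0.17, 0.23 and 0.10. Without both doubted WT extracts 8 rose and 3 fell, and without WT replicate 2, WT replicate 3, Lck-/- replicate 3 or Lck-/- replicate 4 the number that rose was 6. Psmc5, an ATPase of the regulatory particle, rose by 0.77 (SE 0.15, limma adjusted p = 0.00630, and 0.0255 with crossed dye swaps), and the core subunit Psmb1 fell by 1.19 (SE 0.21, adjusted p = 0.00532). Of 38 chaperones 9 rose and 1 fell (4 and none with crossed dye swaps), with a median of 0.24. Hsp90b1, the chaperone GRP94 of the endoplasmic reticulum, lay at 12.28, 13.51, 12.88 and 12.89 in WT and at 14.11, 13.89, 14.17 and 14.48 in Lck-/-, a difference of 1.27 (SE 0.23, adjusted p = 0.00554). Hspa5, which encodes BiP, rose by 0.75. In the spliceosome 10 of 70 rose and 1 fell (3 and none with crossed dye swaps; 4 rose without WT replicate 3 and 3 without Lck-/- replicate 3 or 4), with a median of 0.21. In the BCL2 family and p53 response 6 of 26 rose and 1 fell: the nuclease Aen rose by 0.87 (SE 0.13, adjusted p = 0.00236) and Gadd45b by 1.28 (SE 0.21, adjusted p = 0.00389), and Casp8 fell by 1.12 (SE 0.18, adjusted p = 0.00326).

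Cytosolic ribosomal protein genes were called lower under some scalings only. Whether their median fell rested on the scaling, and the size of the fall after loess also on the slide. These mRNAs begin with a terminal oligopyrimidine (TOP) motif, through which mTORC1 controls their loading onto ribosomes. After loess scaling 44 of 81 fell and none rose, with a median of -0.49; with crossed dye swaps 17 fell, and without WT replicates 1 and 2 it was 31. On slide 1 alone 66 fell, with a median of -0.82, and on slide 2 alone none did, with a median of -0.23. Scaling to the 75th percentile gave 49 falls and a median of -0.52. When the sub-polysomal channel was scaled alone, 7 of them fell and 5 rose and the list's median turned to 0.05. With processed signals 6 fell, 5 rose and it was 0.09, and with median centring 4 fell, 6 rose and it was 0.07, which is 0.29 below all genes. Loess uses the polysomal channel of the same array. After that scaling the polysomal median of these genes was 0.48 higher in Lck-/-. It comes from the same scaled ratio and is not independent of the fall. Rps19 differed by -1.61 (SE 0.26, adjusted p = 0.00333, and 0.0894 with crossed dye swaps). Of 27 elongation factors and other TOP mRNAs 5 fell and 1 rose, with a median of -0.19 that turned to 0.18 with the channel alone, 0.16 with processed signals and 0.35 with median centring. Tpt1 differed by -0.64 after loess (SE 0.13, adjusted p = 0.00896) and by 0.09 with the channel alone. Eif3e, a subunit of initiation factor 3, fell by 1.66 (SE 0.26, adjusted p = 0.00312), and its sign held under the 5 scalings.

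**Figure D4:**
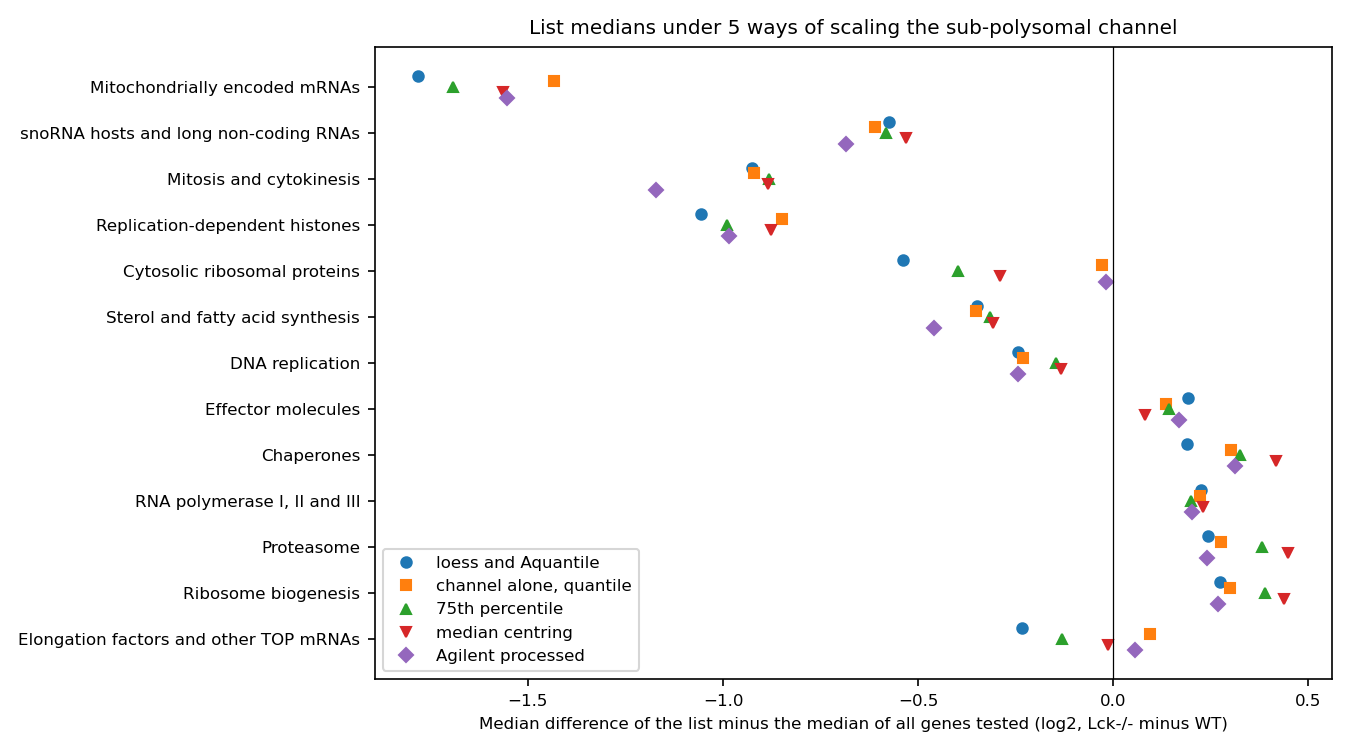
Median difference of 13 lists after subtracting the median of all genes tested (x axis, log2, Lck-/- minus WT) under 5 ways of scaling the sub-polysomal channel, 1 symbol each. Mitochondrially encoded mRNAs, snoRNA hosts, mitosis and histone lists lie at or below -0.53 under each scaling, ribosomal proteins range from -0.54 to -0.02, and the other TOP mRNAs lie on both sides of 0.

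These differences were also set against those in the polysomal pool of the same extracts, with both channels scaled together by loess. The sub-polysomal difference minus the polysomal difference was tested in 9434 genes: it was higher in 60 (0.636%) and lower in 172 (1.82%) at a limma adjusted p below 0.05. Median centring turned that balance to 4876 higher and 5 lower. No gene passed with crossed dye swaps, where 807 genes had an unadjusted p below 0.05 against 1800 with the labelled pairing, and none passed without WT replicates 1 and 2, so each call below rests on the labelled pairing. Mitochondrially encoded mRNAs had a median difference of -0.06 in the polysomal pool and -1.73 in the sub-polysomal pool, and for 9 of 13 the contrast was lower. ND3 had the largest such contrast, -2.36 (SE 0.27, limma adjusted p = 0.00741), with 0.60 in the polysomal pool. ND4, ND1 and CYTB also fell in the polysomal pool, by 1.40, 0.74 and 0.69 (limma adjusted p = 0.00437, 0.0331 and 0.0406). ATP6 differed there by -0.24 (limma adjusted p = 0.563). The contrasts of ND4 and CYTB did not pass (limma adjusted p = 0.0717 and 0.0625). The snoRNA hosts and long non-coding RNAs had 0.17 in the polysomal and -0.53 in the sub-polysomal pool, and 7 of 21 contrasts were lower; Snhg3 differed by -1.29 in the polysomal pool. For ribosomal proteins 47 of 81 contrasts were lower, with medians after loess of 0.48 (polysomal) and -0.49 (sub-polysomal). The sub-polysomal median was 0.05 with that channel scaled alone. Mitosis genes were lower in both pools, -1.11 polysomal and -0.88 sub-polysomal, with 3 contrasts higher and none lower. Histones had -1.03 and -1.01, and no contrast passed. Eomes, S100a4, Cd81, Aldoc and Lck were different in both pools in the same direction (polysomal differences 2.14, 1.72, -2.30, -2.62 and -0.92), and none of their contrasts passed. Among the named rises measured on most arrays of both genotypes, the contrast was higher for Lgmn (0.73).

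**Figure D5:**
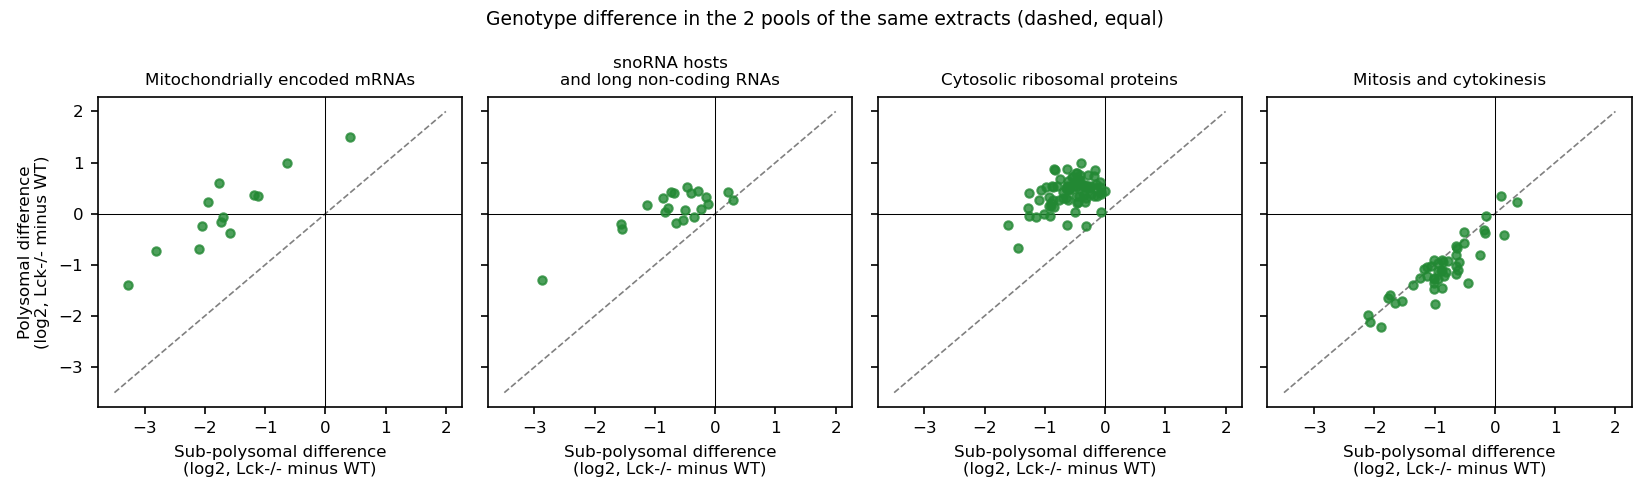
Polysomal difference (y axis) against sub-polysomal difference (x axis), both Lck-/- minus WT in log2, for the members of 4 lists; the dashed line marks equal differences. The mitochondrially encoded mRNAs, most snoRNA hosts and all ribosomal proteins lie above the line, and most mitosis genes lie along it or below it.

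Before any scaling the sub-polysomal channel was not measurably brighter in either genotype. Labelling started from the same volume of every pool, 1.5 µl, and not from the same mass. The median log2 intensity over the genes tested was 9.01, 9.17, 9.28 and 9.59 in WT and 9.76, 9.62, 9.49 and 9.56 in Lck-/-, or 9.26 ± 0.25 (SD, n = 4) and 9.61 ± 0.12 (SD, n = 4). Over the 70 arrangements of the extracts the difference of 0.34 had a two-sided exact permutation p of 0.0857, where 0.0286 is the smallest that can be reached. WT replicate 4 lay among the Lck-/- extracts, and without it the difference was 0.45 with an exact permutation p = 0.0286; leaving out any other extract gave exact p of 0.0857 to 0.143. Without WT replicates 1 and 2 the difference was 0.17 (exact permutation p = 0.333), and with processed signals it was 0.03 (exact permutation p = 0.143). In the polysomal channel the same median was lower in Lck-/- by -0.42 (exact p = 0.0286).

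Markers of some other cell types were at background and those of others were measured. T cell markers were above background on all arrays for the 10 genes tested; 2 rose (Lat and Thy1, the latter with adjusted p = 0.0502 with crossed dye swaps) and 1 fell (Cd5) by limma, and Cd8a and Cd8b1 differed by 0.27 and 0.32, neither of which passed. No stromal or endothelial marker of 10 on the array reached the filter, 1 of 10 B cell markers did (Cd79b, 0.31, adjusted p = 0.133), and 2 of 10 neutrophil markers did. Of 20 dendritic cell and macrophage markers 12 were tested: Fscn1 (above background on 4 of 8 WT arrays) and Ctss rose and H2-Ab1 and Cd68 fell. H2-Ab1, an MHC class II chain, lay at 10.75, 11.21, 10.67 and 10.52 in WT and at 9.87, 9.48, 10.00 and 9.60 in Lck-/-, a difference of -1.05 (limma SE 0.18, adjusted p = 0.00428). Of 9 NK and innate lymphoid markers 4 were tested and Klra4 rose by 0.71 (adjusted p = 0.0454, and 0.0955 with crossed dye swaps; above background on 3 of 8 WT arrays); all 4 differences were above 0, with a median of 0.64. Hba-a2, an alpha globin of red cells, lay at 10.44, 10.94, 10.84 and 11.06 in WT and at 14.11, 12.70, 12.15 and 11.40 in Lck-/-, a difference of 1.77 (SE 0.45, adjusted p = 0.0208), highest in Lck-/- replicate 1; all 3 erythroid markers tested had differences above 0, with a median of 0.94. Of 5 markers of CD4 and regulatory T cells 4 were tested, Ctla4 fell, and the median was -0.19, or 0.12 with median centring. The part of these cells in the other results was not tested.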

How the data were processed

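Sub-polysomal (fractions 1 to 5) and polysomal (fractions 6 to 10) RNA of 8 extracts was hybridised to 16 2-colour Agilent arrays on 2 slides, 8 per slide, with dyes swapped between the arrays of an extract. The deposited intensities are spot signals that Feature Extraction 10.7.3.1 read from the scans, per the file headers, and the submitters' processing notes name limma without a version. Mean and background signals were corrected by normexp (offset 50), then loess and Aquantile scaled, with limma 3.58.1 in R 4.3.3. The channel's 2 arrays per extract were averaged. Probes matched genes for 31385 of 55681 probes; 163 repeat-like probes, defined after the data were seen, were left out, and the brightest probe stood for a gene. Genes needed signal well above background on 6 of 8 arrays of a genotype. lmFit and eBayes gave Benjamini-Hochberg adjusted p-values over all genes tested, with 0.05 as the threshold; the fit was tested on simulated data. Array number limits precision.

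The members and lists were chosen with earlier results of these data known. Named genes were Lck, the 15 largest rises and 15 largest falls that passed with the labelled pairing and with crossed dye swaps and without overlap in either, up to 6 members of smallest p per list, and up to 3 per RNA class. COX2, ND6, Malat1, Snhg5, Zfas1, Norad, Rnf187, Rpa2 and Cd8a were named after their values were seen. Alternatives covered pairing, extracts left out, scaling, background, filters, dye, slide and probe choice. A few named items are not reported here.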

Additional observations from a re-analysis of the deposited data

Results flagged for a closer look

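Within groups of 4 extracts, 20 of 138 checked had 1 extract far from the other 3, where chance flags about 1 in 20. WT replicate 3 stood apart for Lck (14.665, others 14.894 to 14.941), ND4 (16.239), CYTB (17.219), Lockd (12.099), Gnas (13.006) and Cenpa (10.401). WT replicate 4 stood apart for St6galnac2 (6.521) and WT replicate 1 for Gzmc (7.339), both dim in WT.

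Of median list deviations, WT replicate 3 lay apart for mitochondrially encoded mRNAs (1.153), mitochondrial ribosomal proteins (0.109), the BCL2 family and p53 response (-0.304), spliceosome (-0.295) and actin and tubulin genes (-0.179). Lck-/- replicate 1 lay apart for mitosis (-0.059), DNA replication (0.04), quiescence and homing (-0.23) and proximal T cell receptor signalling (-0.058). WT replicate 2 lay apart for ribosome biogenesis (-0.136) and RNA polymerases (-0.15), and WT replicate 4 for serine, one-carbon and nucleotide synthesis (0.121).

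Probes without a gene name were not used in the comparisons. Of these, 3685 passed the filter, with 65 higher (1.76%) and 643 lower (17.4%) in Lck-/- by limma and a median difference of -0.113.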

How the results depend on the processing

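The 1817 calls became 1014 with crossed dye swaps, 1019 without WT replicates 1 and 2, 3871 with median centring, 629 with sub-polysomal RNA in Cy3 only, 487 in Cy5 only and 145 on slide 2 alone; leaving out 1 extract gave 946 to 1915. The 232 calls of the contrast with the polysomal pool became 0 with crossed dye swaps (807 at an unadjusted p below 0.05 by limma), 0 without WT replicates 1 and 2 (1223) and 4881 with median centring; leaving out 1 extract gave 22 to 355. Lck kept its sign under the 27 alternatives and missed the threshold with median centring (-0.283) and on slide 2 alone (-0.883). The raw intensity difference was 0.258 to 0.453 when 1 extract was left out. Signs turned for COX2 (0.023) and Tpt1 (0.091) with the channel alone, for Tpt1 with processed signals (0.138), for Cd8a with the mean of its probes (-0.05) and for Norad without WT replicates 1 and 2 (-0.203) and on slide 1 alone (-0.079). The cause was not tested. Of 99 named genes called, 97 kept their sign under each alternative, and 37 of the 99 stayed past the threshold under each. Most of these genes were named for a small p or for no overlap in these same data. Crossed dye swaps and some other alternatives change the error and not the difference. The count of kept signs is therefore not a test of these genes. Dim genes, such as Mid1 and St6galnac2 in WT, have only a bound.

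Replicate numbers are shared between genotypes, and same-numbered extracts deviated together in 1 of 4 pairs (r of -0.017, -0.294, 0.289 and -0.293). The labels do not say whether same-numbered extracts shared a day or a culture, and so few values cannot decide it. A replicate block gave 1069 calls, and 355 with crossed dye swaps, an alternative chosen after seeing the data; for the contrast it gave 100.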
